A study of Mus musculus with 6 samples.

Results

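Protein phosphatase 1 (PP1) was followed here through 10 of the 34745 genes in the expression table, chosen by name: the catalytic subunits Ppp1ca, Ppp1cb and Ppp1cc and the regulators Ppp1r2, Ppp1r7, Ppp1r8, Ppp1r10, Ppp1r11, Ppp1r12a and Ppp1r12c. The family was picked from the comparison described here, in which Ppp1cb was called. The values of the members in that comparison are therefore given as a description and support nothing beyond themselves. All 10 names matched 1 row each. RNA sequencing covered 3 libraries of P19 cells given the peptide PDTLN1 and 3 untreated control libraries; P19 is a mouse embryonal carcinoma line. Dose, duration, passage and any vehicle are not given in the labels. The treated samples are titled P50, a code that the labels do not explain. Whether each library is its own culture is not stated, so p-values measure only the spread between these libraries, which may be technical. The comparison asks which transcripts differ in abundance after the peptide.

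PP1 is a serine and threonine phosphatase whose catalytic subunit hardly ever acts alone. It is bound by one of many regulatory proteins, most of which dock through a short motif known as RVxF, and the partner sets where the enzyme acts and which phosphoproteins it reaches. In dividing cells the enzyme is known for opposing mitotic kinases, for relaxing myosin through the myosin phosphatase complex and for acting on the transcription machinery in the nucleus.

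Total gene counts were between 10381307 and 11663081 per library, and 13836 genes had enough counts to be tested, all 10 members among them. The labelled cell type was checked on its markers: Pou5f1 averaged 1353 ± 83.4 CPM (counts scaled to a common library total) in PDTLN1 libraries and 1465 ± 32.6 CPM in controls (SD, n = 3 each). The 10 pluripotency markers summed to 2913 to 3044 CPM in PDTLN1 libraries and 3022 to 3145 CPM in controls. Pou5f1 and Lin28a (911 and 918 CPM in PDTLN1 libraries and controls) made up most of that sum. The list was uneven. Esrrb averaged 3.13 CPM in each group. Zfp42, with 1 to 5 counts in PDTLN1 libraries and 3 to 4 in controls, was not tested. Of the 9 tested markers, 0 were higher and 2, Pou5f1 and Utf1, lower without overlap (4.81% and 4.98% of all genes tested). Utf1 had a log2 fold change of -0.38 (edgeR adjusted p 0.989). Of the retina markers, looked at because the extraction text speaks of retinas, 8 of 10 had a count and summed to 1.84 to 3.93 CPM in PDTLN1 libraries and 3.41 to 3.74 CPM in controls. No read was counted for Crx or Arr3, which mark photoreceptors, in any of the 6 libraries. The leading axis of variation in log2 CPM (first principal component, 35% of the variance) did not follow the treatment. PDTLN1 libraries 2 and 3 lay at -23.5 and -11.7 on it with control library 1 at -17.0, and PDTLN1 library 1 lay at 18.3 with control libraries 2 and 3 at 14.2 and 19.8. In RNA from whole cultures, fewer cells expressing a gene and less RNA per cell cannot be told apart.

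The catalytic subunits are the products of 3 genes with closely related coding sequences. Across the coding sequence, Ppp1ca-201 and Ppp1cb-201 were identical at 74.8% of 981 aligned bases, Ppp1ca-201 and Ppp1cc-202 at 79.5%, and Ppp1cb-201 and Ppp1cc-202 at 75.9%, from GENCODE mouse release 21. The subunits differ most at the carboxyl end. The last 60 coding bases of each transcript are therefore shown, with the stop codon in capitals; Ppp1cc-202 and Ppp1cc-201 encode the splice forms known as gamma 1, with 323 codons, and gamma 2, with 337 codons, and gene counts do not separate them.
Ppp1ca-201: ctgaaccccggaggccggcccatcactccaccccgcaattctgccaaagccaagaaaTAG
Ppp1cb-201: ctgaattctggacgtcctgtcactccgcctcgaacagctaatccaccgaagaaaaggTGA
Ppp1cc-202: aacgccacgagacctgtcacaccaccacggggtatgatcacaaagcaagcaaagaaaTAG
Ppp1cc-201: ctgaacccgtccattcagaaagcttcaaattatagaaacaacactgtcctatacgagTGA
How far reads could be shared with other genes was examined in windows of 50 bases along the longest coding transcript of each member. Of the 5913 windows of Ppp1cb, 0 occurred in a transcript of another gene. Ppp1cc shared 58.8% of its windows, most with the gene copy Ppp1ccb, and Ppp1ca shared 19.7%, most with Rad9a, a DNA damage checkpoint gene annotated on the opposite strand over part of it. The counts of Ppp1cc and Ppp1ca are uncertain to that extent, since the treatment of reads with several matches is not stated.

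Ppp1cb, the beta catalytic subunit and the one that forms myosin phosphatase, was the member that rose after PDTLN1. It had 334, 259 and 316 CPM in PDTLN1 libraries 1 to 3, against 139, 162 and 162 CPM in control libraries 1 to 3. The groups did not overlap: the lowest PDTLN1 library stood well above the highest control. Its means were 303 ± 39.1 CPM and 154.5 ± 13.3 CPM (SD, n = 3 each), a 1.96-fold difference with a log2 fold change of 0.97 and an SE of 0.10. Its adjusted p was 0.0459 in edgeR's quasi-likelihood test across all 13836 genes, where 0.0217% of genes were called. The family had been chosen from this comparison, so that value is no separate support. The DESeq2 Wald test gave an adjusted p of 6.58e-13. The edgeR call was lost without control library 2 (adjusted p 0.212), without control library 3 (0.0773), without PDTLN1 library 3 (0.246) and with the replicate number as a block (0.449), and the edgeR adjusted p ran between 3.1e-05, when the model also held the first principal component, and 0.449 across the settings tried, while the log2 fold change stayed between 0.82 and 1.07. At negative scores on the first principal component, PDTLN1 libraries 2 and 3 had 259 and 316 CPM against 139 CPM in control library 1. At positive scores PDTLN1 library 1 had 334 CPM against 162 CPM in each of control libraries 2 and 3. The same sign on both sides follows from the lack of overlap and is no further support.

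**Figure D1:**
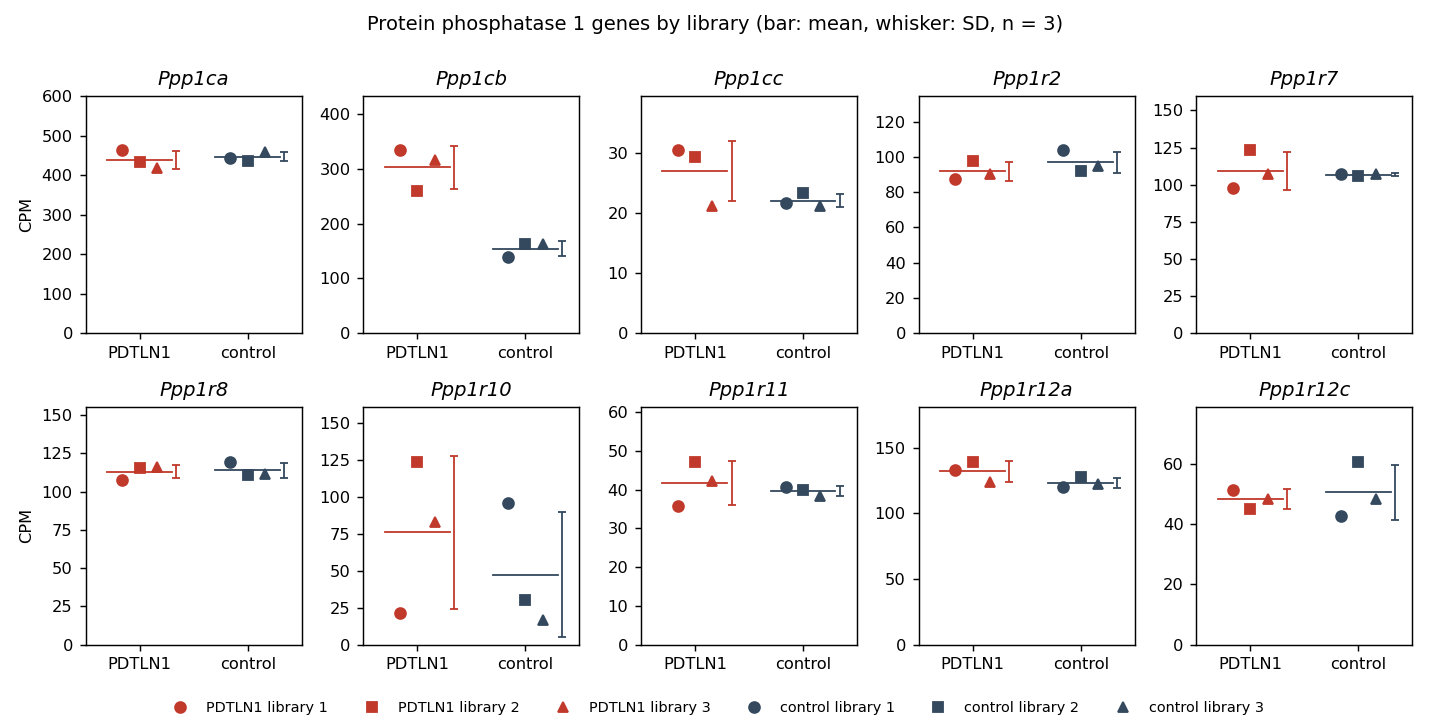
CPM of each of the 10 genes in each PDTLN1 and control library (points), with the group mean (horizontal bar) and SD (whisker, n = 3). The 3 PDTLN1 libraries of Ppp1cb lie between 259 and 334 CPM, above the controls at 139 to 162 CPM; the groups of the other genes overlap.

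The Ppp1cb locus, on the plus strand of chromosome 5, spans 32458843 to 32517433 (GRCm38), and is placed identically in the deposited table and in GENCODE release 21. Of the annotated features overlapping it, Gm43312 had 9, 3 and 9 counts in PDTLN1 libraries and 4, 3 and 2 in controls, and Gm43313 had 5, 3 and 2 and 0, 2 and 6. The antisense gene Gm15614, which runs on past the end of Ppp1cb, had 0 in every PDTLN1 library and 1, 0 and 0 in controls. These features had few counts beside the 2977 to 3698 counts of Ppp1cb in PDTLN1 libraries and 1450 to 1811 in controls. The nearest coding genes with a row in the table were Plb1, 92323 bases away on the lower side, with 11, 6 and 4 counts in PDTLN1 libraries and 13, 15 and 10 in controls, and Yes1, 93738 bases away on the other side. Yes1, a kinase gene of the Src family, had 71.9, 78.7 and 78.9 CPM in PDTLN1 libraries and 71.2, 68.3 and 68.7 CPM in controls.

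The promoters of Ppp1cb and of its paralog Ppp1cc, from 250 bases before to 50 bases after the RefSeq start (GRCm38.p6, plus strand), are shown because the genes encode alternative catalytic subunits and had different values after PDTLN1; capitals mark GC boxes, the letters GGGCGG on either strand.
Ppp1cb, chr5:32458720-32459019: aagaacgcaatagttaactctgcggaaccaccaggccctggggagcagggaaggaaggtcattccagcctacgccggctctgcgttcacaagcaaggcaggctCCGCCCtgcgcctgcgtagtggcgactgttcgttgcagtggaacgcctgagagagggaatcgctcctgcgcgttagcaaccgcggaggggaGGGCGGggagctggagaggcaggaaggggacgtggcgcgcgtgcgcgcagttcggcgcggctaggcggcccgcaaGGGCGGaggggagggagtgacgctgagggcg
Ppp1cc, chr5:122158025-122158324: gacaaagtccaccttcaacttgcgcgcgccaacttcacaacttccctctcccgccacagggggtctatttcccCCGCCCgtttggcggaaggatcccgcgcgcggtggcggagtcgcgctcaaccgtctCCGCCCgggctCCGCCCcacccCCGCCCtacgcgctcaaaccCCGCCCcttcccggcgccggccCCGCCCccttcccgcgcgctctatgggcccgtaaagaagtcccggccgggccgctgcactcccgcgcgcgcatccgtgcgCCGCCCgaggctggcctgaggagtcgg
Ppp1cb had 3 GC boxes in this window and Ppp1cc 7, and 35.7% of 32851 promoters of the same length held at least 1. Neither window held the CCAAT box (letters CCAAT, in 37.4% of promoters), the TATA box (TATAAA, 13.6%), the cyclic AMP response element (TGACGTCA, 1.79%) or the CEBP-ATF composite element (TGATGNAA, 3.97%), on either strand. Promoters were given for 9 of the 10 members, all but Ppp1ca.

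Ppp1ca, the alpha catalytic subunit, had the highest level of the family. It was at 462, 433 and 419 CPM in PDTLN1 libraries 1 to 3 and at 442, 437 and 459 CPM in control libraries 1 to 3. The groups overlapped, with both the highest and the lowest value in a PDTLN1 library, and the log2 fold change was -0.03 with an SE of 0.06. Ppp1cc, the gamma catalytic subunit, had 30.4, 29.3 and 21.2 CPM in PDTLN1 libraries and 21.7, 23.3 and 21.2 CPM in controls. PDTLN1 libraries 1 and 2 were above all controls and PDTLN1 library 3 was among them; the log2 fold change was 0.29 ± 0.15 (SE; adjusted p 0.989, edgeR). It was 0.44 without PDTLN1 library 3, 0.20 without PDTLN1 library 1, 0.22 without PDTLN1 library 2 and 0.18 without both libraries numbered 1.

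How much of the catalytic pool each gene made up depended on the length it was divided by. The deposited FPKM (counts per gene length and library total) imply a length of 12585 bases for Ppp1cb and 7414 for Ppp1cc, which is 2.11 and 3.11 times their longest coding transcripts in GENCODE release 21, but 1379 bases for Ppp1ca, which is 0.94 times. On the deposited FPKM, Ppp1cb made up 6.96% ± 0.787 of the 3 catalytic genes in PDTLN1 libraries and 3.63% ± 0.291 in controls (SD, n = 3 each). With the longest coding transcript as length, a choice made after seeing the data, its share was 14.1% ± 1.51 in PDTLN1 libraries and 7.67% ± 0.586 in controls. On counts, not divided by length, the share was 39.3% ± 3.09 in PDTLN1 libraries and 24.8% ± 1.54 in controls. On each of these scales Ppp1ca held the larger part: 92.0%, 82.7% and 57.1% in PDTLN1 libraries and 95.5%, 89.6% and 71.7% in controls, in the same order of scales. The sum of the 3 genes also depended on the scale. On deposited FPKM it stood at 364, 338 and 333 in PDTLN1 libraries and at 334, 332 and 348 in controls, and the groups overlapped. Per length of the longest coding transcript it was 381, 349 and 347.5 FPKM in PDTLN1 libraries and 332, 333 and 346.9 FPKM in controls, so the groups did not overlap but nearly touched. In CPM, not divided by length, it was 826, 721 and 756 in PDTLN1 libraries and 603, 622 and 642 in controls, without overlap.

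**Figure D2:**
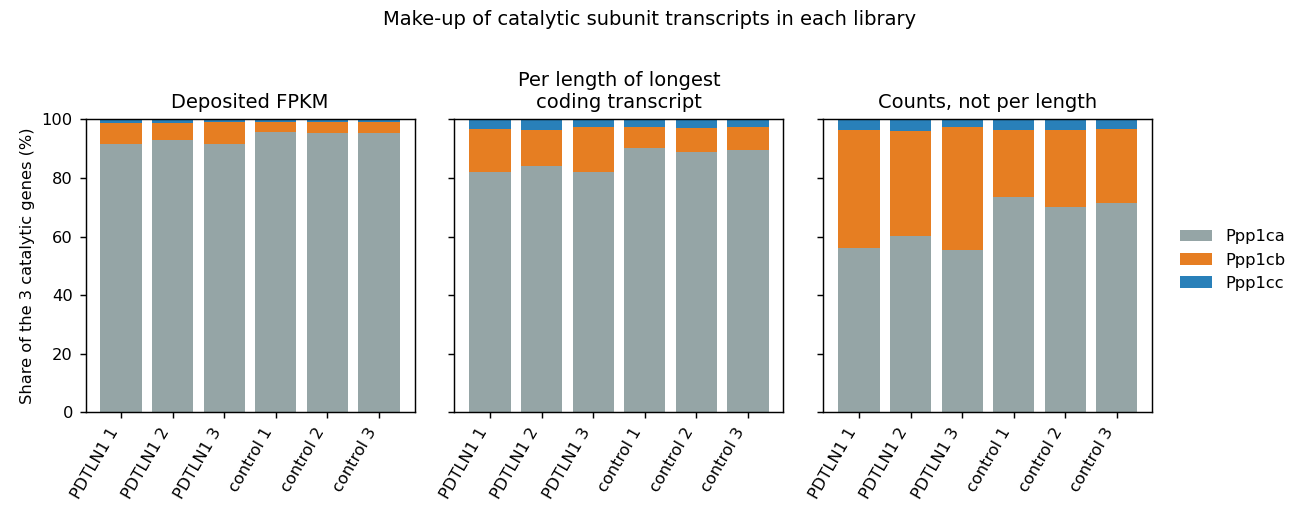
Share of Ppp1ca, Ppp1cb and Ppp1cc in their sum (percent, stacked bars) in each of the 6 libraries, on the deposited FPKM, per length of the longest coding transcript and on counts. The Ppp1cb segment averages 6.96%, 14.1% and 39.3% in PDTLN1 libraries and 3.63%, 7.67% and 24.8% in controls on these scales.

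Ordered by deposited FPKM averaged over the 6 libraries, the levels were 320.0 for Ppp1ca, 37.5 for Ppp1r12a, 29.1 for Ppp1r8, 19.8 for Ppp1r2, 18.1 for Ppp1cb, 15.9 for Ppp1r11, 9.91 for Ppp1r7, 6.84 for Ppp1r10, 5.65 for Ppp1r12c and 3.30 for Ppp1cc. The place of Ppp1cb in this order differed between the groups. In PDTLN1 libraries its deposited FPKM of 24.0 ± 3.09 lay between Ppp1r8 at 29.0 ± 1.26 and Ppp1r2 at 19.3 ± 1.17, and in controls its 12.2 ± 1.06 lay between Ppp1r11 at 15.5 ± 0.461 and Ppp1r7 at 9.77 ± 0.0849 (SD, n = 3 each). Per length of the longest coding transcript the order below Ppp1ca (299.6 FPKM) was Ppp1r8 at 55.7, Ppp1cb at 38.3, Ppp1r12a at 30.3, Ppp1r11 at 25.5, Ppp1r2 at 23.1, Ppp1r12c at 16.5, Ppp1r10 at 14.5, Ppp1r7 at 10.5 and Ppp1cc at 10.3. Within PDTLN1 libraries on that scale Ppp1cb, at 50.7 ± 6.52, lay within its SD of Ppp1r8, at 55.5 ± 2.41. In controls Ppp1cb, at 25.9 ± 2.23, was instead within its SD of Ppp1r11, at 24.8 ± 0.737, and Ppp1r2, at 23.7 ± 1.47 (SD, n = 3 each). Ppp1r7 and Ppp1cc did not differ beyond their SD in PDTLN1 libraries, at 10.6 ± 1.25 and 11.3 ± 2.07, and Ppp1r10 spanned the levels of several others because of its spread.

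Of the inhibitors and assembly factors, Ppp1r2 encodes inhibitor-2, which binds and blocks the catalytic subunit. It had 87.3, 97.9 and 90.4 CPM in PDTLN1 libraries and 104, 92.0 and 95.1 CPM in controls, a log2 fold change of -0.08 ± 0.08. (SE) Ppp1r2 shared 9.93% of its windows with other genes, most with the pseudogene Ppp1r2-ps4, which had 146, 186 and 205 counts in PDTLN1 libraries and 203, 217 and 184 in controls. In all, 3 of 7 pseudogenes of Ppp1r2 had at least 10 counts in a library. Ppp1r7 encodes the leucine-rich repeat protein SDS22 and Ppp1r11 inhibitor-3, and both sit with newly made catalytic subunit in a complex that the ATPase p97 takes apart. Ppp1r7 was at 97.8, 123 and 107 CPM in PDTLN1 libraries and at 106 to 107 CPM in every control; PDTLN1 libraries 1 and 2 lay on either side of the controls. Ppp1r11 had the same order within the PDTLN1 group, with 35.9, 47.3 and 42.3 CPM, against 40.7, 40.0 and 38.4 CPM in controls. Their log2 fold changes were 0.04 and 0.08, with SEs of 0.09 and 0.11. Vcp, the gene for p97, averaged 444 ± 10.6 CPM in PDTLN1 libraries and 466.5 ± 9.72 CPM in controls (SD, n = 3 each), with -0.07 as log2 fold change and an adjusted p of 0.989 from edgeR. It was lower without overlap, as were 4.98% of all genes tested.

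Of the myosin phosphatase subunits, Ppp1r12a encodes MYPT1, which targets the beta catalytic subunit to myosin, and Ppp1r12c its relative MBS85. Ppp1r12a had 133, 139 and 124 CPM in PDTLN1 libraries and 120, 128 and 122 CPM in controls, with a log2 fold change of 0.10 and an SE of 0.07. PDTLN1 library 3 lay among the controls and the other PDTLN1 libraries above them. Ppp1r12c had 51.4, 44.8 and 48.3 CPM in PDTLN1 libraries and 42.6, 60.7 and 48.1 CPM in controls, and the widest spread was within the controls. Its log2 fold change was -0.07 with an SE of 0.13; it was 0.09 without control library 2, -0.18 without control library 1 and -0.23 without both libraries numbered 1. The partner of these subunits, Ppp1cb, thus had 2.29 times the CPM of Ppp1r12a in PDTLN1 libraries and 1.25 times in controls, a ratio not corrected for length.

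Of the nuclear regulators, Ppp1r8 encodes NIPP1, an inhibitor that binds splicing and chromatin factors. It was among the steadiest members, at 108, 116 and 116 CPM in PDTLN1 libraries and 120, 111 and 112 CPM in controls, with a log2 fold change of -0.01 and an SE of 0.07. Ppp1r10 encodes PNUTS, which brings the phosphatase to chromatin and to RNA polymerase II together with the proteins of Wdr82 and Tox4. Ppp1r10 had 21.3, 124 and 82.9 CPM in PDTLN1 libraries 1 to 3 and 95.8, 30.2 and 16.5 CPM in control libraries 1 to 3. PDTLN1 libraries 2 and 3 and control library 1 were high, the remaining 3 libraries were low, and each group held libraries of both kinds. The high libraries were those with negative scores on the first principal component. That component was computed from all genes tested, Ppp1r10 among them, so the match is not independent of this gene. The ratio of the highest to the lowest library of Ppp1r10 was 7.52. Of the 9929 genes with a mean of at least 10 CPM, 22 had a larger ratio, and the median was 1.25. Between the groups the log2 fold change of Ppp1r10 was 0.69 with an SE of 0.96. It was 1.71 without control library 1, 1.13 without PDTLN1 library 1 and 0.14 without PDTLN1 library 2. Leaving out control library 2 gave 0.45 and leaving out control library 3 gave 0.28. Without both libraries numbered 1 it was 2.15 (edgeR adjusted p 0.213, the lowest over its alternatives). That setting leaves PDTLN1 libraries with negative scores and controls with positive scores, so treatment and the first principal component cannot be told apart there. With the first principal component in the model the log2 fold change of Ppp1r10 was 0.02.

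**Figure D3:**
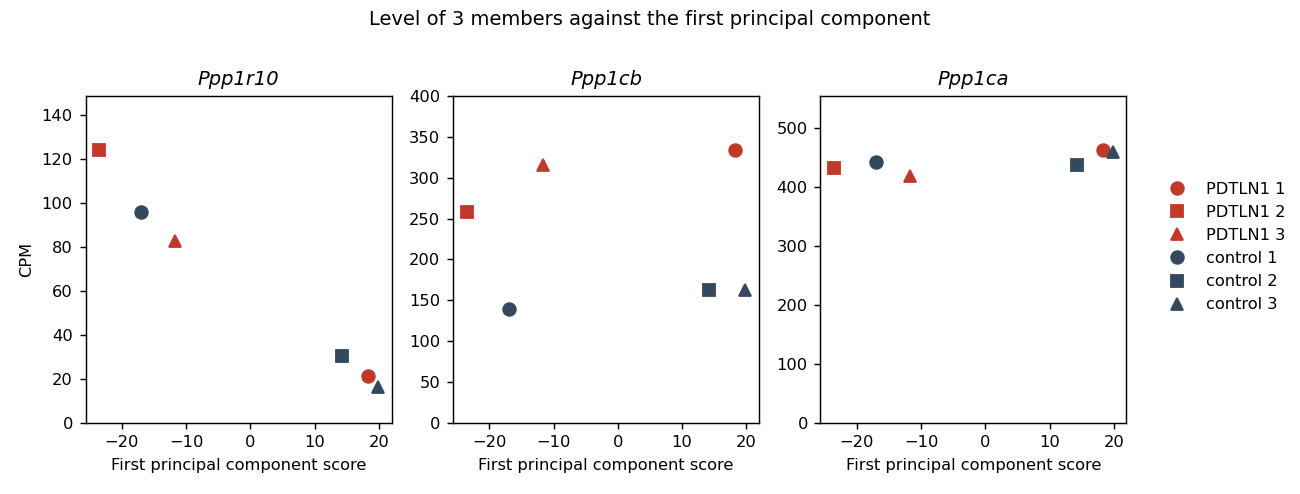
CPM of Ppp1r10, Ppp1cb and Ppp1ca (vertical axes) in each library against its score on the first principal component of log2 CPM (horizontal axes, no unit). Ppp1r10 lies at 82.9 to 124 CPM at negative scores and at 16.5 to 30.2 CPM at positive scores. The groups of Ppp1cb do not overlap and so are apart on both sides.

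The Ppp1r10 locus, on the plus strand of chromosome 17, spans 35916434 to 35932283 (GRCm38), and 1.26% of its windows occurred in other genes. Mrps18b, a mitochondrial ribosomal protein gene that starts 45 bases away on the opposite strand, had 56.0, 60.7 and 56.8 CPM in PDTLN1 libraries and 51.0, 52.7 and 48.9 CPM in controls, without the split of Ppp1r10. The partner gene Wdr82 had 152, 147 and 162 CPM in PDTLN1 libraries and 144, 161 and 159 CPM in controls. Tox4 had 120.0, 113 and 111 CPM in PDTLN1 libraries and 128, 115 and 123 CPM in controls, so neither partner showed the 2 levels of Ppp1r10. RefSeq gave 2 starts for Ppp1r10, both inside the locus given above and not at its lower end, 35916434. The promoter of the first, with the TATA box and GC boxes in capitals, is shown for this gene because of its spread.
Ppp1r10, chr17:35916946-35917245: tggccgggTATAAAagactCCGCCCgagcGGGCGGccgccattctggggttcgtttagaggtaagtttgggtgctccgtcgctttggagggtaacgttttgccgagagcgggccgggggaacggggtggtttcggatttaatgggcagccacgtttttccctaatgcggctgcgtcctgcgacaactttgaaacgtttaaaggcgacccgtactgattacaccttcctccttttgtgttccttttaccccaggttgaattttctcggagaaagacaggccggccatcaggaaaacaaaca
It held 1 TATA box and 2 GC boxes, all at the end of the window far from the RefSeq start. Whether the TATA box serves this start was not tested. The promoter of the other start held 1 GC box and 1 CEBP-ATF composite element.

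Over the family, 1 of 10 members was called by edgeR, where the background was 0.0217% of the genes tested. The family had been chosen from this same comparison. Ppp1cb was also the 1 member whose groups did not overlap with PDTLN1 higher, against 4.81% of the genes tested, and 0 of 10 were lower without overlap, against 4.98%. DESeq2 called 1 of 10, again Ppp1cb, where 0.0723% of genes were called. Without both libraries numbered 1, edgeR called 1 of 10 with 0.652% of genes called. In that setting the PDTLN1 libraries left had negative scores on the first principal component and the controls left had positive scores. Treatment and that component cannot be told apart there. With the first principal component as a covariate, 1 of 10 was called with 0.0578% of genes called. In the main comparison, 1 of 10 had an unadjusted edgeR p under 0.05, against 3.99% of the genes tested. The median log2 fold change of the 10 was 0.06, and that of all genes tested was -0.00087.

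**Figure D4:**
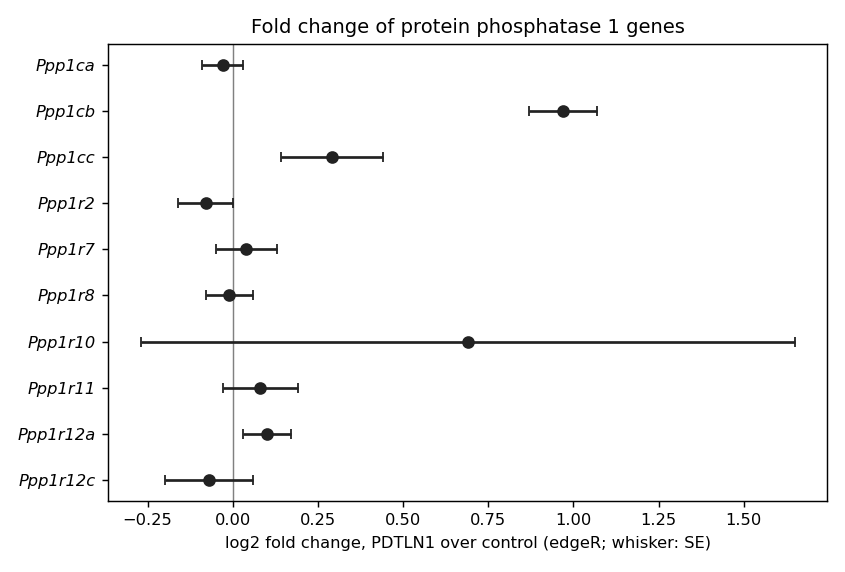
Log2 fold change of each member, PDTLN1 over control, from edgeR (points) with its SE (whiskers). Ppp1cb is at 0.97, Ppp1r10 is at 0.69 with an SE of 0.96, Ppp1cc is at 0.29, and the other 7 lie between -0.08 and 0.10.

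The wider PP1 system was taken from 5 lists with 94 genes tested in all. Of these, edgeR called 0 and DESeq2 0, with 4 at an unadjusted edgeR p under 0.05 (3.99% of all genes tested). Without overlap, 10 were higher and 7 lower (4.81% and 4.98% of all genes tested), and the median log2 fold change was 0.03. The first list held the other genes named Ppp1r, of which 25 of 33 were tested, with a median of 0.03 and with 2 higher and 2 lower without overlap. Its most abundant members per length were Ppp1r14b, at 71.5 FPKM, and Ppp1r15b, a scaffold for dephosphorylation of the initiation factor eIF2 alpha, at 34.4 FPKM, with log2 fold changes of 0.04 and -0.08. Ppp1r26 had the smallest p of this list, with 38, 26 and 139 counts in PDTLN1 libraries and 9, 24 and 9 in controls; its log2 fold change of 2.18 ± 0.77 (SE) rested largely on PDTLN1 library 3 and had an edgeR adjusted p of 0.989. Ppp1r13b stood at 0.53, and Ppp1r14a, an inhibitor of myosin phosphatase, and Ppp1r35 stood at -0.44 and -0.33, each at an adjusted p of 0.989 (edgeR). Ppp1r15a, the stress-inducible relative of Ppp1r15b, was named after its values were seen: it averaged 40.3 ± 2.19 CPM in PDTLN1 libraries and 32.6 ± 7.21 CPM in controls (SD, n = 3 each). The groups did not overlap but nearly touched, with 424, 436 and 493 counts in PDTLN1 libraries and 253, 382 and 419 in controls. Control library 1 was the lowest. Its log2 fold change was 0.31 ± 0.15 (SE), with an edgeR adjusted p of 0.989.

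Of the myosin phosphatase pathway, which sets how strongly non-muscle myosin contracts, 19 genes were tested. Of these, 3 had an unadjusted edgeR p under 0.05 (3.99% of all genes tested), 5 were higher without overlap (4.81%) and 1 was lower without overlap (4.98%). Those 3 were the kinase genes Rock2, Rock1 and Cdc42bpa, whose products phosphorylate MYPT1 or myosin. Rock2 averaged 221 ± 12.1 CPM in PDTLN1 libraries and 189 ± 3.33 CPM in controls, and Rock1 142 ± 13.6 CPM and 120.4 ± 5.22 CPM (SD, n = 3 each). Their log2 fold changes were 0.23 and 0.24, and the edgeR adjusted p was 0.989 for each. Myl6 and Myh9, the light and heavy chain genes with the highest deposited FPKM, stood at 0.18 and 0.10, and the light chain genes Myl12a and Myl9 at -0.16 and -0.14. In CPM, Myl12a (189 in PDTLN1 libraries and 212 in controls) was above Myl6 (80.5 and 71.0). The median of the list was 0.04.

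Of the proteins that assemble or scaffold PP1, 27 of 29 genes were tested, with a median log2 fold change of 0.03. In this list 0 had an unadjusted edgeR p under 0.05 (3.99% of all genes tested), and 1 was higher and 2 lower without overlap (4.81% and 4.98%). Hcfc1 stood at 0.18 on the log2 scale, and Akap1 and Elfn1 at -0.09 and -0.66. Of 15 mitotic and chromatin partners tested, the chromosome-coating protein gene Mki67 was at 575 ± 35.5 CPM in PDTLN1 libraries and 530.0 ± 8.21 CPM in controls, and the kinetochore scaffold gene Knl1 at 94.4 ± 5.03 CPM and 105 ± 8.01 CPM (SD, n = 3 each). On the log2 scale Rb1, Bod1 and Brca1 stood at 0.26, -0.04 and -0.12, and the median of the list was 0.02. Of these 15, 2 were higher and 2 lower without overlap, against the same 4.81% and 4.98%. Of 8 tested catalytic subunits of related phosphatases, Ppp2ca and Ppp2cb, the catalytic subunits of protein phosphatase 2A, stood at 0.09 and 0.07, and Ppp4c and Ppp3cb at -0.10 and -0.04. The median of these 8 was 0.02, and the groups overlapped for each of them.

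**Figure D5:**
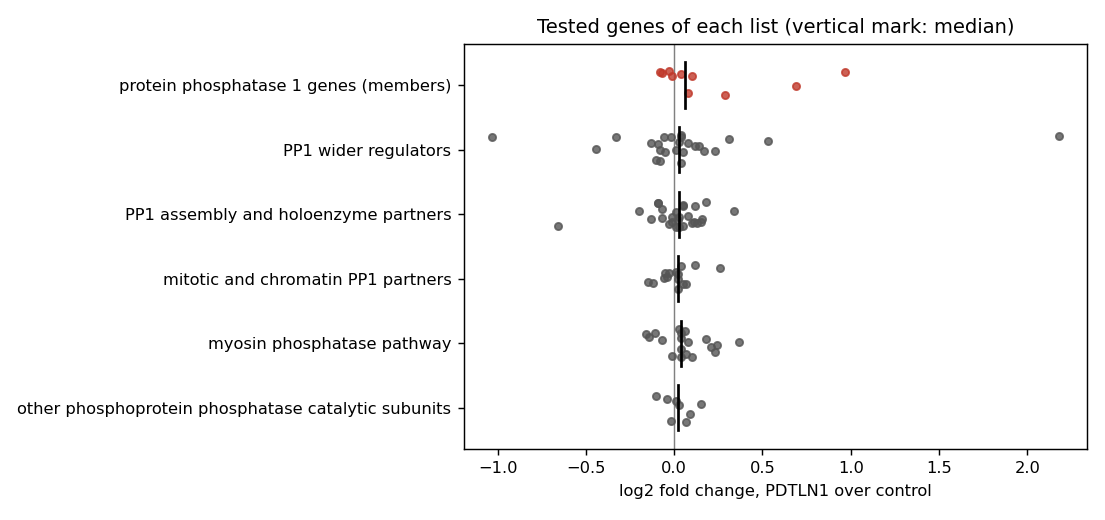
Log2 fold change, PDTLN1 over control (horizontal axis), of each tested gene of the 10 members and of the 5 wider lists (points), with the median (vertical mark). The medians lie between 0.02 and 0.06; Ppp1r26 is at 2.18 and Ppp1r3f, with 6 to 18 counts in PDTLN1 libraries and 12 to 44 in controls, at -1.03.

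The genes most like Ppp1cb across the 6 libraries, by Pearson r of log2 CPM among genes with a mean of at least 10 CPM, were Slc16a6, Ipmk, Gm14124, Col4a5 and Tubgcp3, with r of 0.987, 0.986, 0.984, 0.979 and 0.973. These r rest on the same PDTLN1 and control libraries and are a description. Ipmk, the inositol polyphosphate multikinase, had 69.2, 59.0 and 67.8 CPM in PDTLN1 libraries and 21.98, 26.5 and 23.1 CPM in controls. Like Ppp1cb, it had its lowest PDTLN1 value in library 2. Col4a5, a basement membrane collagen, had 37.2, 36.3 and 36.3 CPM in PDTLN1 libraries and 31.3, 31.9 and 32.7 CPM in controls, so a close match in pattern went with a far smaller difference. The genes most like Ppp1r10, looked up after its values were seen, were Nkrf, Lsm7, B4galt5, Lrp6 and Fam208a, with r from 0.995 to 0.999. Lrp6, a Wnt co-receptor, had 170.0, 243 and 216 CPM in PDTLN1 libraries and 223, 178 and 159.5 CPM in controls.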

How the data were processed

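RNA of 6 P19 libraries was sequenced after an Illumina TruSeq preparation, per the labels' protocols. The authors deposited whole-number counts per gene, not normalized, and FPKM, both per the file headers. The FPKM deposited by the authors imply, with the counts, 1 gene length in all libraries within 0.1% for all 15678 genes with counts in each. Bowtie 0.12.2 and the builds mm8 and mm9 are named in the submitters' processing notes with no role. Not given in the sources used here are the counter, its annotation and how it treated strand and multiple matches. Of 34267 identifiers found in GENCODE mouse release 21 (GRCm38), 80.8% had the same position.

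Groups follow the treatment label and columns the sample titles; same-numbered libraries are not said to be paired. Counts were tested with edgeR 4.0.16 in R 4.3.3 (filterByExpr, TMM, robust glmQLFit, glmQLFTest, two-sided, Benjamini-Hochberg over 13836 genes, threshold 0.05). The SE is the log2 fold change over the square root of F. CPM use TMM-scaled library sizes, and log2 CPM a prior count of 2. The steps were tested on simulated counts with the same dispersion for every gene and no structure within groups, a simpler setting than these libraries. Alternatives were DESeq2 1.42.0, its size factors, library size alone, other filters and thresholds, the replicate block, omitted libraries and the first principal component as a covariate. Coding sequences were aligned globally with Biopython 1.88. Named are all members, per list the 2 most abundant genes and the 2 with the smallest p in each direction, most marker genes aside, the 5 genes most like Ppp1cb, and most of its neighbours; 1 gene that the rule names is not reported here. Cdc42bpa, Ppp1r3f, Ppp1r15a, Esrrb, Zfp42, Wdr82, Tox4, Mrps18b and the genes most like Ppp1r10 were chosen after their values were seen. Members, lists and alternatives were chosen with earlier results of these data known. Promoters are from RefSeq (GRCm38.p6). Of the listed names 1, Citk, matched no row, and Knl1 was matched by identifier.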

Additional observations from a re-analysis of the deposited data

How the results depend on the processing

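The log2 fold change of Ppp1cb was 0.82 to 1.07 over 14 alternatives, other thresholds not included. It fell short of the 0.05 threshold in 4 of them: with the replicate number as a block (log2 fold change 0.97, 0 members called) and without control 2, control 3 or PDTLN1 3. At the stricter threshold of 0.01 the main edgeR comparison (adjusted p 0.0459) did not call Ppp1cb either. Leaving out 1 library gave log2 fold changes of 0.89 to 1.07 and 0 to 1 members called. The labels give no pairing, and deviations from the group means correlated at -0.36, -0.14 and -0.10 between libraries sharing the number 1, 2 or 3, so the block stands for no known pairing. The cause of these losses was not tested. Over all genes edgeR called 3; the count was 10 with DESeq2, 8 without a filter beyond 1 count, 1 with the replicate block, 2 to 13 without 1 library, 91 without both libraries numbered 1 and 8 with the first principal component as a covariate. No wider-list gene was called by edgeR or DESeq2 under these settings. Without both libraries numbered 1, the PDTLN1 libraries left had negative scores on the first principal component and the controls left had positive scores. Differences by treatment and along that component cannot be told apart there. The share of Ppp1cb among catalytic genes differed by 3.34 percentage points on deposited FPKM, by 3.03 to 3.78 without 1 library, by 14.5 on raw counts, and, with lengths chosen after seeing the data, by 6.45 (longest coding transcript) and 6.07 (exon union). The sign of Ppp1ca, Ppp1r2, Ppp1r7, Ppp1r8, Ppp1r11 and Ppp1r12c differed from the reported one under some alternatives, and no direction is claimed for them. Among the members Ppp1cc had few counts, 248 to 337 counts in PDTLN1 libraries and 226 to 248 in controls; the smallest difference that could be called at this depth was not tested.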
